A study of Arabidopsis thaliana with 18 samples.

Results

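The transporter genes followed here bring sugars and polyols into the cells of Arabidopsis thaliana leaves: they are STP1, STP3, STP4, STP7, STP13 and STP14, which belong to the sugar transport protein family of monosaccharide importers, the polyol importer PMT5, the inositol importer INT4, and the sucrose importers SUC1 and SUC2. They were taken by locus (AT1G11260, AT5G61520, AT3G19930, AT4G02050, AT5G26340, AT1G77210, AT3G18830, AT4G16480, AT1G71880 and AT1G22710, in that order) from the 32833 genes of the deposited count table and make up 10 of them. All 10 had enough counts to be tested in both experiments. In the first experiment, discs cut from mature rosette leaves of 4-week-old Col-0 plants spent a night in half-strength Murashige and Skoog (MS) medium with 1% fructose, 1% glucose or, as the osmotic control, 1% mannitol. In the second, untreated leaves of 4-week-old plants came from ERDL4-overexpressor 2 (Oex2), ERDL4-overexpressor 1 (Oex1) and wild type (WT), all in Col-0. ERDL4 is a vacuolar sugar transporter, and the promoter that drives the transgene is not given in the sources used here. Plants had 10 h of light and 14 h of dark at 21 °C, and each group has 3 libraries that are called biological replicates.

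Importers of this kind sit in the plasma membrane and use the proton gradient to carry their substrate from the cell wall space into the cytosol. The STP proteins carry monosaccharides, PMT and INT proteins carry linear polyols and cyclic inositol, and SUC proteins carry sucrose. In leaves, hexose importers retrieve sugars that leak or are released by cell wall invertase, and SUC2 loads sucrose into the phloem for export. STP1 is known as a major route of glucose uptake in seedlings and as a gene that sugars repress.

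The bases just before the gene start are shown for the 4 importers with the largest changes in the discs. Each run is the 250 bases upstream of the annotated start in TAIR10.1 (RefSeq), read 5′ to 3′ on the gene's own strand. Capitals mark TATCCA or TTATCC (known as sugar-repressed elements), ACTCAT (the ACT motif), AAATATCT (part of the evening element), TTGACC or TTGACT (W-boxes) and TATAAA, on either strand. STP1 lies at chr1:3776986-3777235 (plus strand), STP14 at chr1:29012097-29012346 (minus strand), INT4 at chr4:9290153-9290402 (plus strand) and STP4 at chr3:6934318-6934567 (plus strand).
STP1: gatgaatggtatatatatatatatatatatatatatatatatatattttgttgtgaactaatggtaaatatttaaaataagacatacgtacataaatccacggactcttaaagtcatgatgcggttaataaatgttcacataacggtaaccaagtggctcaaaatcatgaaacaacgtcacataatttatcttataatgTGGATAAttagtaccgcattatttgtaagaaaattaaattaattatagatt
STP14: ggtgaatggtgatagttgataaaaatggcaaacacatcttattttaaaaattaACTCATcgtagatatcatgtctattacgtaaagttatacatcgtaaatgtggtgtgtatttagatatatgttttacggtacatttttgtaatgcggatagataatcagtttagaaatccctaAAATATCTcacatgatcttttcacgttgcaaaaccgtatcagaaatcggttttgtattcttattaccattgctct
INT4: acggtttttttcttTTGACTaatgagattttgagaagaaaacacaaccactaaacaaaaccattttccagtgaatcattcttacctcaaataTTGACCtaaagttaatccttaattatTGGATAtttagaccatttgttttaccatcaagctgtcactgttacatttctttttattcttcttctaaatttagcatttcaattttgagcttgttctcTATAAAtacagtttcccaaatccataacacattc
STP4: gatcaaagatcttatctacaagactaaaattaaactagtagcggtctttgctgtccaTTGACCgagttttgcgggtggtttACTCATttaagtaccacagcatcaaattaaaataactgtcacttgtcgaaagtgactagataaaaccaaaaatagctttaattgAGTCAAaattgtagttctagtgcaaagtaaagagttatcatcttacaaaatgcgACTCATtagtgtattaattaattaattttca

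The STP1 window holds TATCCA and TTATCC as 1 overlapping stretch on the opposite strand. TATCCA stands before 3 of the 10 importers (STP1, STP7 and INT4) and before 13.6% of 27443 annotated genes, and TTATCC before STP1 alone and 12.5% of genes. ACTCAT stands before STP4, where it occurs at 2 places, and before STP14, against 12.3% of genes. AAATATCT stands before STP14 and 4.79% of genes. The 2 W-box forms stand before 2 (TTGACC) and 4 (TTGACT) of the 10, against 12.2% and 19.1% of genes. CACGTG, the G-box, is before STP7, SUC1 and SUC2 and before 6.49% of genes, and ACGTGG is before STP7 and 8.23% of genes. The STP7 window overlaps the annotated genes AT4G02060 and AT4G02055. TATAAA is before INT4 and SUC1 and 47.3% of genes. A match describes the letters in this window only.

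Library totals were 19129210 to 25306880 counts in discs and 17318810 to 26157641 in leaves. Levels are TMM-scaled CPM, a gene's count in proportion to the count of its library, and log2 fold changes carry their standard error (SE) and a Benjamini-Hochberg adjusted p from edgeR's quasi-likelihood test over 18784 genes in discs and 18703 in leaves. A gene is said to rise or fall when that p is under 0.05. No label says which plants a library came from, so the p-values measure the spread between these libraries. Replicates 2 and 3 of each overexpressor line were closer to each other than other replicate pairs (chi-square per degree of freedom 1.7 and 2.07, against 4.59 to 66.1). Both values are still above counting noise, but this cannot show that these libraries came from separate plants. All libraries were kept, and averaging replicates 2 and 3 of each line was tried as an alternative. ERDL4 had 604, 578 and 568 CPM in Oex2, 350, 355 and 359 CPM in Oex1, and 124, 111 and 152 CPM in WT, with no overlap between the groups. With scaling by library size in place of TMM, the median change of all genes moved to 0.34 for fructose against mannitol (0.09 with TMM), 0.23 for glucose against mannitol (0.03), 0.22 for Oex1 against WT (0.01) and 0.28 for Oex2 against WT (0.02). The share of called genes that were higher then became 68.2%, against 55.3% with TMM, for fructose, 68.7% against 49% for Oex1 and 74.4% against 49% for Oex2.

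In discs kept in sugar, 6 importers were lower than in mannitol with both sugars: STP1, STP14, INT4, STP4, STP7 and SUC2. In fructose 2 importers rose (SUC1 and STP3) and 6 of 10 fell, where over all genes 36.6% rose and 29.5% fell, 66.1% in either direction. In glucose 4 rose (STP13, SUC1, PMT5 and STP3) and 6 fell, where over all genes 38.5% rose and 35.5% fell, 74.0% in either direction. The median log2 change of the 10 was -1.22 in fructose and -2.03 in glucose, beside medians of 0.09 and 0.03 over all genes. Both comparisons use the same mannitol libraries.

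STP1, the hexose importer named above, had 16.2, 13.3 and 14.7 CPM in fructose, 18.1, 14.5 and 12.7 CPM in glucose, against 1446, 1446 and 1567 CPM in mannitol. The sugar groups lie far below every mannitol library and overlap each other. STP1 fell by a factor of 101 in fructose (log2 -6.66 ± 0.18 SE, adjusted p 9.81e-09) and of 98.6 in glucose (-6.62 ± 0.17, adjusted p 7.64e-09). By log2 change it was the 42nd lowest of 18784 genes in fructose and the 59th lowest in glucose. STP1 overlaps AT1G11270 on the opposite strand over 438 bases, and the strand setting of the counting is not given in the sources used here. AT1G11270 itself had 7.03 to 8.29 CPM in fructose, 7.25 to 9.73 in glucose and 7.98 to 8.64 in mannitol.

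STP14, which carries galactose, had 1.9, 1.84 and 1.83 CPM in fructose, 3.48, 2.45 and 2.66 CPM in glucose, against 119, 105 and 132 CPM in mannitol. It had few counts in both sugars, with fructose below glucose and no overlap. The fall was 63.6-fold in fructose (log2 -5.99 ± 0.15, adjusted p 9.81e-09) and 41.5-fold in glucose (-5.37 ± 0.15, adjusted p 9.38e-09). STP4, a hexose importer best known from sink tissues, wounding and infection, had 29.7, 29.8 and 27.6 CPM in fructose, 24.6, 25.7 and 25.3 CPM in glucose, against 137, 133 and 174 CPM in mannitol. Its sugar libraries span a narrow range below all mannitol libraries. The log2 change was -2.35 ± 0.11 in fructose (adjusted p 1.08e-07) and -2.55 ± 0.11 in glucose (adjusted p 4.22e-08).

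STP7, an importer of the cell wall sugars arabinose and xylose, had 15.5, 12.4 and 18 CPM in fructose, 4.97, 8.88 and 6.96 CPM in glucose, against 42.9, 38.2 and 40.6 CPM in mannitol. The 3 groups do not overlap and glucose is the lowest. STP7 fell in fructose (-1.40 ± 0.19, adjusted p 0.000108) and in glucose (-2.54 ± 0.20, adjusted p 1.59e-06). It overlaps AT4G02060 on the opposite strand over 437 bases, which averaged 9.38 CPM in fructose, 4.49 in glucose and 4.12 in mannitol.

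STP13, a hexose importer induced by infection and other stress, had 165, 279 and 159 CPM in fructose, 629, 469 and 478 CPM in glucose, against 182, 178 and 272 CPM in mannitol. Glucose is above every other library, while fructose and mannitol overlap. STP13 rose 2.49-fold in glucose (log2 1.32 ± 0.26, adjusted p 0.00114). In fructose its log2 change against mannitol was -0.07 ± 0.25 with a 95% interval of -0.64 to 0.5 (adjusted p 0.828). STP3, a monosaccharide importer of green leaf tissue, had 173, 205 and 184 CPM in fructose, 199, 188 and 193 CPM in glucose, against 146, 154 and 158 CPM in mannitol. The mannitol libraries are all lower, by a small margin: STP3 rose by 0.30 ± 0.09 in fructose (adjusted p 0.0139) and 0.34 ± 0.09 in glucose (adjusted p 0.00558). The fructose call was lost with RLE scaling (adjusted p 0.0829), with DESeq2 (0.07), without fructose replicate 2 (0.0549) with fructose and mannitol fitted alone (0.0554) and without mannitol replicate 1 (0.0612).

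**Figure D1:**
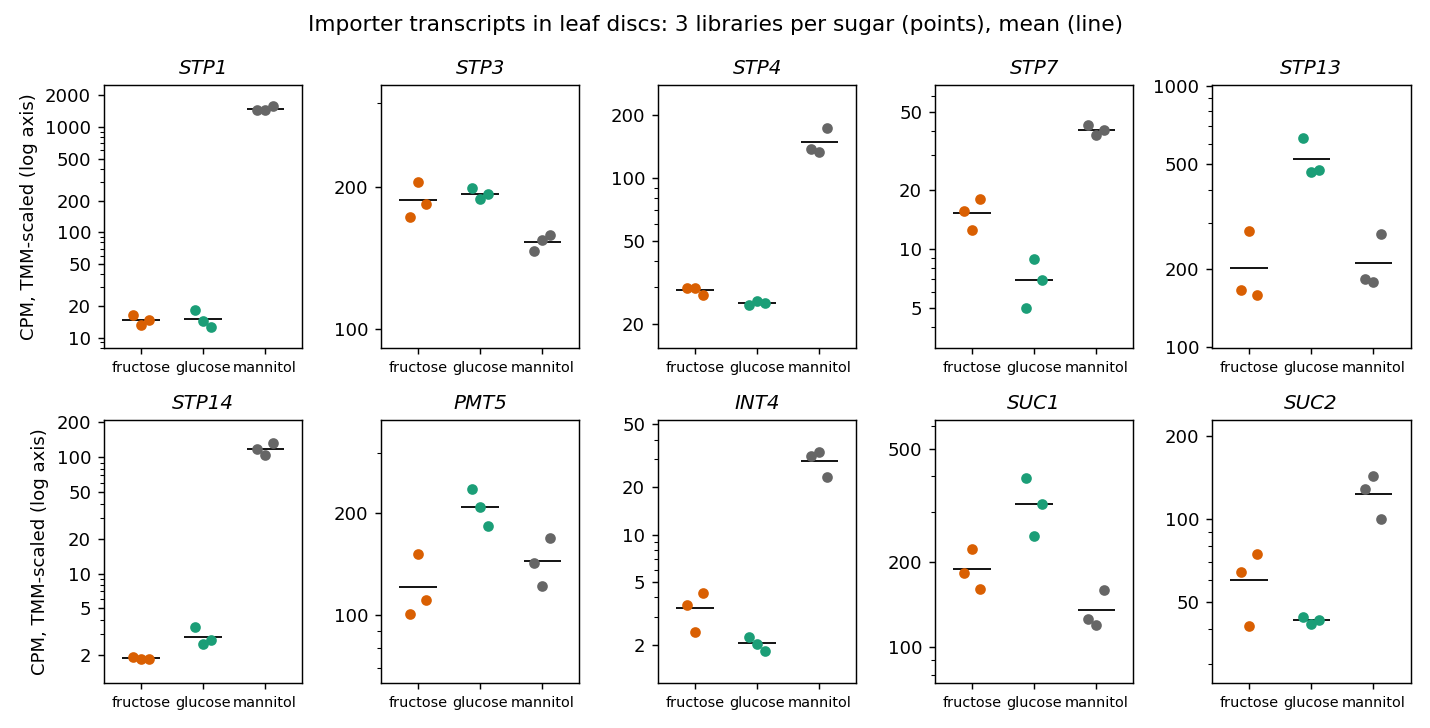
Each panel shows 1 importer with its CPM in every leaf disc library on a log axis, in fructose, glucose and mannitol, with the group mean as a bar. STP1 sits between 12.7 and 18.1 CPM in both sugars and between 1446 and 1567 CPM in mannitol.

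PMT5, an importer with a broad range of polyols and monosaccharides, had 101, 151 and 111 CPM in fructose, 235, 208 and 183 CPM in glucose, against 142, 122 and 169 CPM in mannitol. Its fructose and mannitol libraries overlap and its glucose libraries are higher than both. PMT5 rose in glucose by 0.53 ± 0.17 (adjusted p 0.0172), and its change in fructose was -0.26 ± 0.17 (95% interval -0.64 to 0.12, adjusted p 0.208). The glucose call was lost with mannitol replicates 1 and 2 averaged as 1 library (0.0587), without glucose replicate 1 (0.0948), without mannitol replicate 1 (0.0509) and without mannitol replicate 2 (0.0716), and the fructose value became a call without fructose replicate 2 (-0.45, adjusted p 0.0287). INT4, a high-affinity importer of myo-inositol, had 3.57, 2.43 and 4.27 CPM in fructose, 2.25, 2.04 and 1.84 CPM in glucose, against 31.6, 33.4 and 23.1 CPM in mannitol. It was low in both sugars, with no overlap with mannitol. INT4 fell 8.51-fold in fructose (-3.09 ± 0.22, adjusted p 9.96e-07) and 14.3-fold in glucose (-3.84 ± 0.23, adjusted p 2.15e-07).

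The sucrose importers went opposite ways. SUC1, known from pollen, roots and trichomes, had 183, 222 and 160 CPM in fructose, 396, 247 and 319 CPM in glucose, against 126, 120 and 159 CPM in mannitol. All sugar libraries exceed all mannitol libraries, the nearest being 160 CPM in fructose and 159 CPM in mannitol. SUC1 rose 2.37-fold in glucose (log2 1.25 ± 0.19, adjusted p 0.000192) and by 0.48 ± 0.19 in fructose (adjusted p 0.0465). The fructose call is the least stable of the discs: it was lost with RLE scaling (0.105), with DESeq2 (0.0915), with mannitol replicates 1 and 2 averaged as 1 library (0.139), and without fructose replicate 1 or 2 (0.0824 and 0.155), mannitol replicate 1 or 2 (0.13 and 0.146) or glucose replicate 3 (0.0655). SUC2, the sucrose importer of companion cells, had 64.4, 40.9 and 74.6 CPM in fructose, 44.1, 41.6 and 43.3 CPM in glucose, against 128, 143 and 100 CPM in mannitol. It was lower in all sugar libraries than in all mannitol libraries, by 2.06-fold in fructose (-1.04 ± 0.21, adjusted p 0.00148) and 2.88-fold in glucose (-1.53 ± 0.21, adjusted p 0.000106).

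Cell type markers changed in the discs too. Over all genes, 36.6% rose and 29.5% fell in fructose, and 38.5% rose and 35.5% fell in glucose. In fructose 5 of 6 phloem markers fell and none rose, and in glucose all 6 fell. Their summed level was 244 to 319 CPM in fructose, 201 to 261 in glucose and 439 to 675 in mannitol. SWEET11 and SWEET12, the sucrose exporters of phloem parenchyma, both fell in both sugars (37.9 to 39.8 CPM summed in fructose, 46.7 to 62.2 in glucose and 119 to 136 in mannitol). Of 5 guard cell markers, KAT1 and GORK rose in each sugar, and MYB60, FAMA and HT1 were not called in either. The sum of the 5 was 127 to 156 CPM in fructose, 201 to 282 in glucose and 37.3 to 44.5 in mannitol. KAT1 averaged 81.2 CPM in fructose, 58.9 in glucose and 20.9 in mannitol, and GORK 44.8, 161 and 4.43 in the same order. MYB60, FAMA and HT1 averaged 2.65, 9.49 and 2.18 CPM in fructose, 3.24, 12 and 2.15 in glucose and 3.05, 10.7 and 2.4 in mannitol. Of 4 epidermis markers, 2 fell in fructose (ATML1 and FDH, with PDF2 and LTP1 not called) and 4 in glucose. They summed to 878 to 1572 CPM in fructose, 179 to 744 in glucose and 1120 to 1985 in mannitol. LTP1 was the largest part of this sum, with averages of 977, 276 and 1286 CPM in the same order. It ranged from 95 to 623 CPM within glucose. Of 3 mesophyll markers, 2 fell in fructose and 3 in glucose, and their summed level was 3110 to 5677 CPM in fructose, 164 to 951 in glucose and 11057 to 19249 in mannitol. No listed marker was at 0 in any group. Their part in the importer results was not tested. In such bulk RNA, fewer cells of a type, less RNA per cell and a change of the marker genes themselves cannot be told apart.

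**Figure D2:**
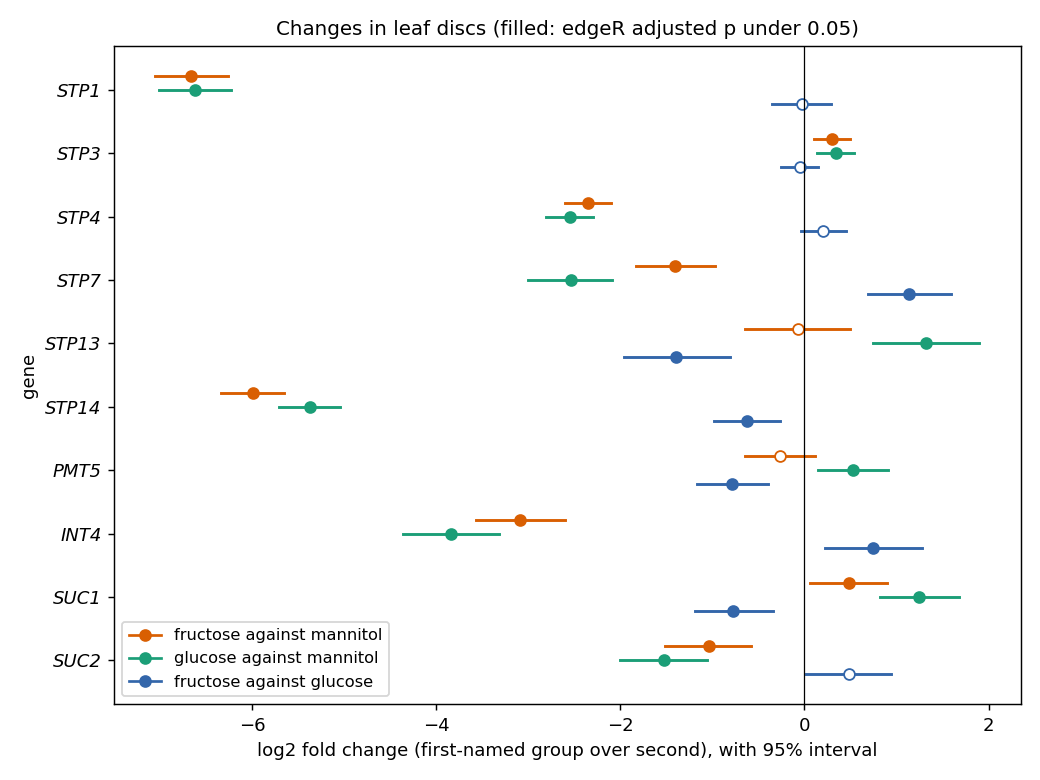
The log2 fold change of each importer is shown with its 95% interval for fructose against mannitol, glucose against mannitol and fructose against glucose. Filled points passed an adjusted p of 0.05 and open circles did not. STP1, STP14, INT4 and STP4 lie far left of 0 with both sugars, and STP13 lies right of 0 with glucose against mannitol.

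Fructose and glucose, a ketohexose and an aldohexose, were given at the same 1% and for the same night, so they can be set against each other directly. Against glucose, 2 importers rose in fructose (STP7 and INT4) and 4 of 10 fell (STP13, PMT5, SUC1 and STP14), where over all genes 24.7% rose and 24.6% fell, 49.3% in either direction. The largest of these differences was STP13, at -1.39 ± 0.26 (adjusted p 0.00306), then STP7, at 1.14 ± 0.20 (adjusted p 0.00225). PMT5 fell by 0.79 (SE 0.17, adjusted p 0.00514), SUC1 fell by 0.77 (SE 0.19, adjusted p 0.0089) and STP14 fell by 0.62 (SE 0.16, adjusted p 0.0114). INT4 rose by 0.75 ± 0.24 (adjusted p 0.0245). That INT4 call was lost when either of fructose replicates 1 and 3 or either of glucose replicates 2 and 3 was left out (0.0645, 0.102, 0.0513 and 0.0788). The STP14 call was lost with the mannitol libraries left out of the fit (0.0635).

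STP1, STP3, STP4 and SUC2 were not called between the sugars. The difference was -0.03 for STP1 (95% interval -0.35 to 0.29, adjusted p 0.87), -0.05 for STP3 (-0.25 to 0.15, 0.692), 0.20 for STP4 (-0.04 to 0.45, 0.149) and 0.48 for SUC2 (0.02 to 0.94, 0.0779). For STP1 the interval allows at most a small difference beside its change of over 6 log2 units in each sugar. SUC2 became a call with library-size scaling (0.53, adjusted p 0.0457) and without fructose replicate 2 (0.69, adjusted p 0.00384), the library with the lowest SUC2 level of that group.

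Per kilobase of exon, the mannitol discs were dominated by a single importer. STP1 held 55.4% ± 1.16 of the summed level of the 10 in mannitol, 1.04% in glucose and 1.67% in fructose. In glucose STP13 led with 35.0% ± 1.24, ahead of SUC1 with 24.8%, PMT5 with 18.1% and STP3 with 14.6%. In fructose SUC1 had 23.5% ± 1.69, STP3 22.6%, STP13 21.2% ± 4.03 and PMT5 16.6%, so the first 3 do not differ beyond their spread. The summed level was 362 ± 49.1 CPM per exon kb in fructose, 580 ± 79.9 in glucose and 1082 ± 73.5 in mannitol (SD, n = 3 each). Without STP1 it was 356 ± 49.6 in fructose, 574 ± 78.9 in glucose and 483 ± 45.6 in mannitol, where the glucose and mannitol groups are much closer. The 6 STP importers together made up 51.1% in fructose, 53.3% in glucose and 80.9% in mannitol. The 2 sucrose importers made up 31.9% in fructose, 28.5% in glucose and 11.3% in mannitol. These sums are descriptions, with no test.

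**Figure D3:**
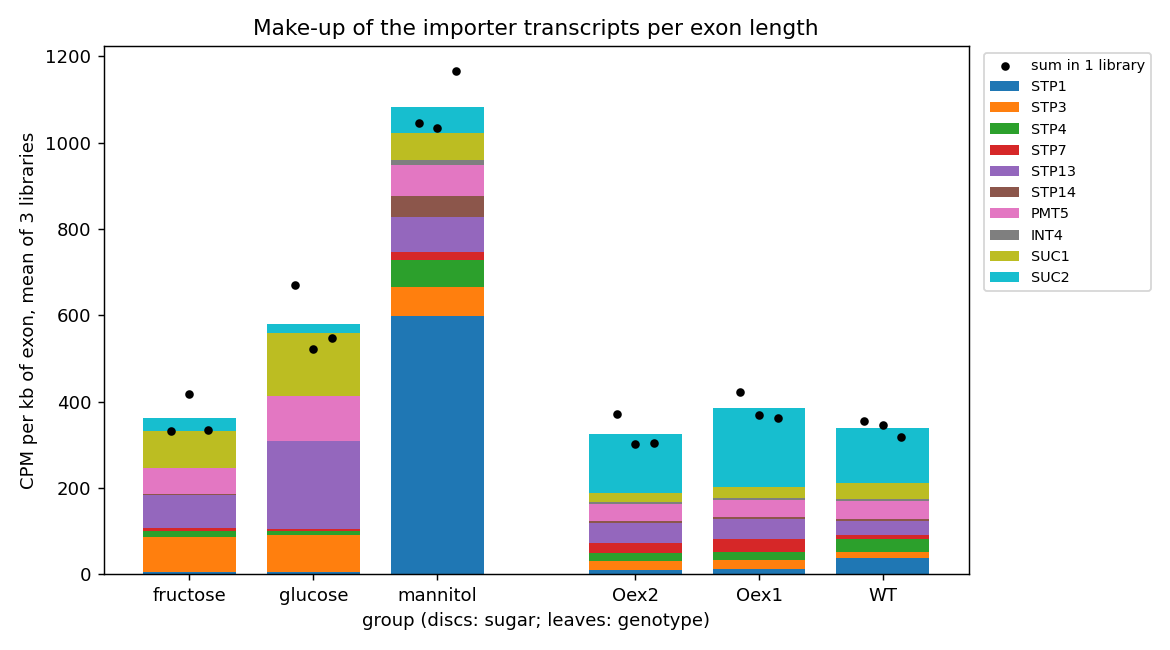
Stacked bars give the mean CPM per exon kb of each of the 10 importers. They stand for fructose, glucose and mannitol discs and for Oex2, Oex1 and WT leaves. Points give the sum of the 10 in each library. STP1 fills 55.4% of the mannitol bar, and SUC2 is the largest part of each leaf bar.

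The remaining 21 genes of the same 4 families, without the tonoplast members INT1 and SUC4, mostly had too few counts to test: 8 had enough counts in discs and 7 in leaves. INT3 had 0 counts in every library, but 94.96% of the 50-base windows of its transcript occur in another gene, so its count cannot show its level. In fructose 3 of the 8 genes tested in discs rose and 3 fell, where 36.6% of all genes rose and 29.5% fell. In glucose 4 rose and 3 fell, where 38.5% of all genes rose and 35.5% fell. PMT6, a polyol transporter, fell with both sugars, to 20.8 CPM in fructose and 24.2 CPM in glucose, against 428 CPM in mannitol (-4.36 ± 0.13 in fructose, adjusted p 1.4e-08, and -4.15 ± 0.13 in glucose). INT2, an inositol importer, fell to 0.804 CPM in fructose and 0.411 CPM in glucose, against 4.01 CPM in mannitol (-2.30 ± 0.30 in fructose and -3.25 ± 0.33 in glucose). Reads assigned to SUC7 averaged 17.4 CPM in fructose, 138 CPM in glucose and 0.224 CPM in mannitol. SUC7 was called higher in fructose (6.21 ± 0.59) and in glucose (9.21 ± 0.58). SUC7 is uncertain, because its coding sequence is 93.7%, 93.8% and 89.4% identical to SUC6, SUC8 and SUC9. Of its 50-base windows, 6.86% occur in another gene. SUC6, SUC8 and SUC9 themselves had 0 counts in fructose and in glucose. SUC3, another sucrose transporter, rose in fructose (0.47 ± 0.12) and in glucose (0.79 ± 0.12). PMT3, a polyol transporter, had 2.45 CPM in glucose and 0 counts in mannitol, which makes it at least 46.6-fold higher in glucose (floor of 3 counts over the mannitol group); that comparison was picked out after its values were seen. Between the sugars, 1 of the 8 rose and 4 fell in fructose, where 24.7% of all genes rose and 24.6% fell. The 4 that fell were SUC7 (-2.99 ± 0.36), PMT3 (-3.86 ± 0.69), PMT4 (-0.81 ± 0.17) and SUC3 (-0.32 ± 0.12).

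In Oex2 leaves, 2 importers rose (STP7 and STP3) and 4 of 10 fell (STP1, STP4, INT4 and STP14), where over all genes 20.6% rose and 21.5% fell, 42.1% in either direction. In Oex1, 3 rose (STP7, SUC2 and STP3) and 2 fell (STP1 and STP4), where over all genes 21.5% rose and 22.3% fell, 43.8% in either direction. The median log2 change of the 10 was -0.27 in Oex2 and -0.21 in Oex1, beside 0.02 and 0.01 over all genes. Both comparisons share the WT libraries, and of 11 calls only STP7 in both lines, SUC2 in Oex1 and STP1 in Oex2 held in all 19 alternatives. Library-size scaling ended the calls of STP4 in both lines (adjusted p 0.0584 in Oex2 and 0.104 in Oex1) and of INT4 and STP14 in Oex2 (0.119 and 0.229), and gave calls for STP13 in both lines (0.0272 in Oex2 and 0.0371 in Oex1) and SUC2 in Oex2 (0.37, adjusted p 0.0197). With replicates 2 and 3 of each line averaged as 1 library, STP3 was no longer called in Oex2 (0.058) or Oex1 (0.0833), nor INT4 and STP14 in Oex2 (0.0947 and 0.122), nor STP1 and STP4 in Oex1 (0.075 and 0.138).

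STP1 had 32, 16.7 and 16.1 CPM in Oex2, 47.2, 18.5 and 20 CPM in Oex1, and 124, 60.1 and 87.4 CPM in WT. Every overexpressor library is below every WT library, and replicate 1 is the highest in each group. STP1 fell in Oex2 (-2.07 ± 0.45, adjusted p 0.00739) and in Oex1 (-1.67 ± 0.45, adjusted p 0.0163). The Oex1 call was lost without WT replicate 1 (0.0507), without Oex1 replicate 2 or 3 (0.0576 and 0.0588). The overlapping gene AT1G11270 was higher in both lines, at 2.6 to 4.09 CPM in Oex2, 2.95 to 3.45 in Oex1 and 1.64 to 1.95 in WT.

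STP4 had 41.7, 43.6 and 39.9 CPM in Oex2, 56.8, 40.4 and 39.8 CPM in Oex1, and 88, 56.2 and 61.6 CPM in WT. Oex2 lies below WT, while Oex1 replicate 1 is above the lowest WT library. STP4 fell in Oex2 (-0.72 ± 0.19, adjusted p 0.012) and in Oex1 (-0.59 ± 0.19, adjusted p 0.0273). Without WT replicate 1 these became -0.47 (adjusted p 0.056) and -0.34 (0.135), and without Oex1 replicate 2 or 3 the Oex1 call was lost (0.101 and 0.103).

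STP7 had 61, 49.2 and 50 CPM in Oex2, 58.4, 66.9 and 64.4 CPM in Oex1, and 21, 31.3 and 18.7 CPM in WT. Both lines are above all WT libraries. STP7 rose in Oex2 (1.17 ± 0.18, adjusted p 0.000925) and in Oex1 (1.42 ± 0.18, adjusted p 0.000419), the importer with the smallest adjusted p in both lines. AT4G02060, which overlaps it on the opposite strand, averaged 3.49 CPM in Oex2, 2.91 CPM in Oex1 and 9.71 CPM in WT. In discs STP7 was one of the genes that fell in both sugars.

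STP3 had 62.2, 46.8 and 43 CPM in Oex2, 53.3, 51 and 47.1 CPM in Oex1, and 33.5, 43.4 and 29.3 CPM in WT. The lowest Oex2 library is just under the highest WT library, and the Oex1 libraries are all above WT. STP3 rose by 0.52 ± 0.17 in Oex2 (adjusted p 0.0328) and 0.51 ± 0.17 in Oex1 (adjusted p 0.033). These calls are fragile: Oex2 lost it without WT replicate 1 or 3 (0.0828 and 0.0897) or Oex2 replicate 1 or 2 (0.107 and 0.0509), and Oex1 without WT replicate 1 or 3 (0.0837 and 0.0935) or any 1 Oex1 library (0.0558 to 0.0821). STP13 had 150, 107 and 107 CPM in Oex2, 133, 115 and 114 CPM in Oex1, and 84.8, 105 and 48.6 CPM in WT. Every overexpressor library exceeds every WT library, yet the change was not called (0.61 ± 0.25, adjusted p 0.0751 in Oex2 and 0.60 ± 0.25, adjusted p 0.0768 in Oex1). DESeq2 called it in both lines (adjusted p 0.0434 in Oex2 and 0.0455 in Oex1), and without WT replicate 2, the highest of its group, edgeR called it in both (0.89 in Oex2 and 0.87 in Oex1, adjusted p 0.0181 each). STP14 had 12.2, 9.48 and 9.03 CPM in Oex2, 11.3, 11.7 and 9.61 CPM in Oex1, and 16.1, 12.5 and 14 CPM in WT. It fell in Oex2 (-0.47 ± 0.15, adjusted p 0.031) and was not called in Oex1 (-0.38 ± 0.15, adjusted p 0.0631). The Oex2 call was lost without WT replicate 1 or 3 or Oex2 replicate 2 or 3 (0.068 to 0.131), and Oex1 gained one without WT replicate 2 (0.0438) or Oex2 replicate 1 (0.0369).

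PMT5 had 93.5, 70.3 and 71.6 CPM in Oex2, 100, 68.9 and 69.6 CPM in Oex1, and 87.4, 88.8 and 69.2 CPM in WT. The 3 groups overlap, and the changes, whose sign turned with library-size scaling, were -0.06 ± 0.18 in Oex2 (adjusted p 0.806) and -0.04 ± 0.18 in Oex1 (0.874). INT4 had 9.81, 5.18 and 7.84 CPM in Oex2, 10.5, 8.3 and 8.32 CPM in Oex1, and 11.6, 10.6 and 13.9 CPM in WT. It is below WT in all overexpressor libraries, fell in Oex2 (-0.66 ± 0.22, adjusted p 0.0322) and was not called in Oex1 (-0.42 ± 0.21, adjusted p 0.138). The Oex2 call was lost without WT replicate 1 or 3 or Oex2 replicate 2 or 3 (0.071 to 0.114).

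**Figure D4:**
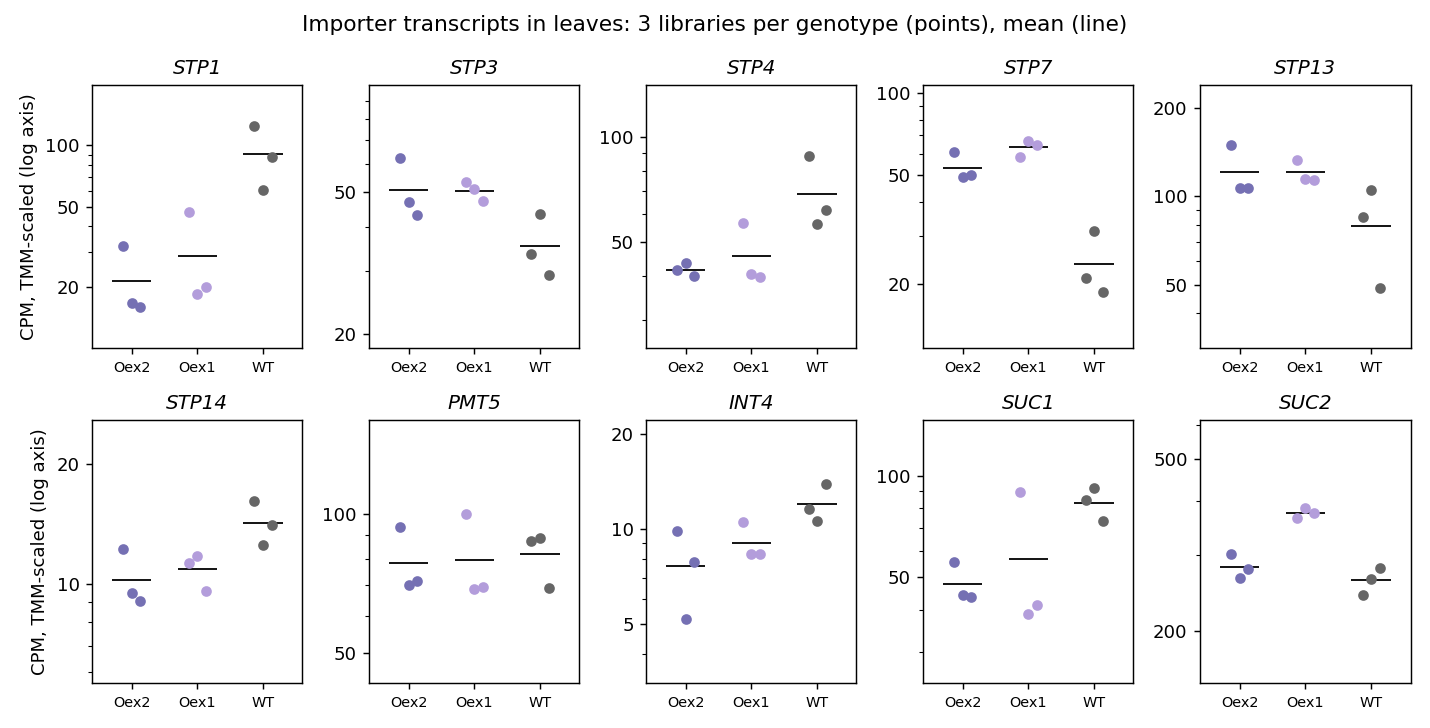
Each panel shows 1 importer with its CPM in every leaf library on a log axis, in Oex2, Oex1 and WT, with the group mean as a bar. STP7 lies between 49.2 and 66.9 CPM in the lines and between 18.7 and 31.3 CPM in WT.

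SUC1 had 55.6, 44.2 and 43.8 CPM in Oex2, 89.4, 38.9 and 41.5 CPM in Oex1, and 84.7, 91.7 and 73.5 CPM in WT. Oex1 replicate 1 stands with WT and apart from the other overexpressor libraries. SUC1 was not called in Oex2 (-0.80 ± 0.29, adjusted p 0.0517; DESeq2 gave 0.0139, RLE scaling 0.0484 and Oex2 and WT fitted alone 0.0028) or in Oex1 (-0.56 ± 0.29, adjusted p 0.145). Without Oex1 replicate 1 it was called in both, at -0.80 (adjusted p 0.000877) in Oex2 and -1.05 (adjusted p 0.000406) in Oex1, and in Oex2 also without Oex1 replicate 2 or 3 (0.0349 and 0.0446). SUC2 had 301, 266 and 278 CPM in Oex2, 366, 385 and 375 CPM in Oex1, and 243, 264 and 280 CPM in WT. Oex1 is above all other libraries, while Oex2 and WT overlap. SUC2 rose in Oex1 (0.52 ± 0.11, adjusted p 0.00335), and its change in Oex2 was 0.10 ± 0.11 (adjusted p 0.451).

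Between the lines, none of the 10 importers was called in Oex2 against Oex1 with edgeR, in a comparison where 0.0535% of all genes were (0.0321% higher and 0.0214% lower). At an unadjusted p under 0.05 there was 1 importer, SUC2, at -0.41 ± 0.11 (95% interval -0.65 to -0.18, adjusted p 0.121). DESeq2 called 1, again SUC2 (adjusted p 0.00158), and so did edgeR without WT replicate 2 (0.0482). Over all genes these gave 680 and 492 calls, against 10 in the main edgeR fit. The interval for STP1 was wide, at -1.42 to 0.61 around a difference of -0.40.

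**Figure D5:**
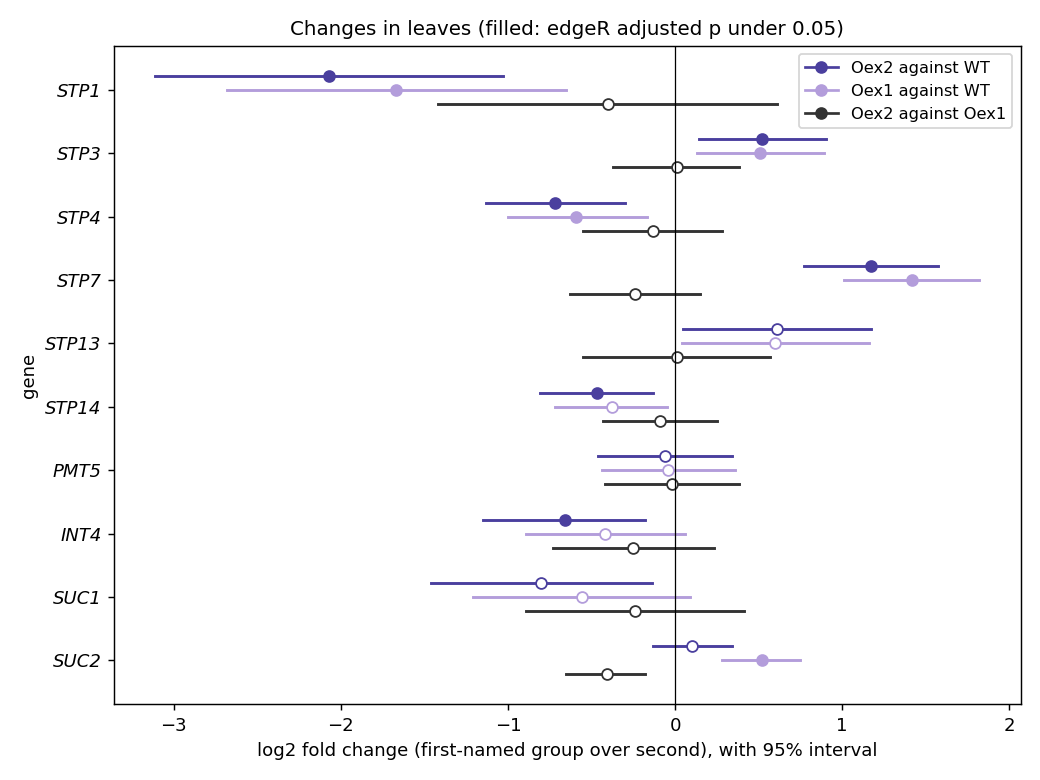
The log2 fold change of each importer is shown with its 95% interval for Oex2 against WT, Oex1 against WT and Oex2 against Oex1. Filled points passed an adjusted p of 0.05 and open circles did not. STP7 lies right of 0 and STP1 left of 0 in both lines, and no point is filled between the lines.

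Per exon kilobase, SUC2 held the largest share in all 3 leaf groups, 42.5% ± 2.58 in Oex2, 47.8% ± 4.83 in Oex1 and 37.9% ± 4.92 in WT. STP1 held 2.61% in Oex2, 2.91% in Oex1 and 10.7% ± 3.55 in WT. The summed level of the 10 was 326 ± 39.8 CPM per exon kb in Oex2, 385 ± 32.5 in Oex1 and 340 ± 20.2 in WT. Of the 7 other family genes tested, 2 rose and 2 fell in Oex2, where 20.6% of all genes rose and 21.5% fell. In Oex1 2 rose and 1 fell, where 21.5% of all genes rose and 22.3% fell. INT2 rose to 8.58 CPM in Oex2 and 10.7 CPM in Oex1, against 0.189 CPM in WT (log2 5.47 ± 0.72 in Oex2 and 5.79 ± 0.71 in Oex1). PMT6 fell to 6.99 CPM in Oex2 and 8.94 CPM in Oex1, against 32.3 CPM in WT (-2.21 ± 0.40 in Oex2 and -1.85 ± 0.38 in Oex1). STP5 had 2.76 CPM in Oex2 and 0.527 CPM in WT and rose in that line (2.38 ± 0.42, adjusted p 0.00174), and STP11 had 0.164 CPM in Oex2 and 0.716 CPM in WT and fell (-2.12 ± 0.55, adjusted p 0.0121), both at very low levels. PMT4 rose in Oex1 (0.32 ± 0.11, adjusted p 0.0359).

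Marker genes moved in leaves too, where over all genes 20.6% rose and 21.5% fell in Oex2. In Oex1 21.5% of all genes rose and 22.3% fell. Phloem markers summed to 616 to 651 CPM in Oex2, 763 to 780 in Oex1 and 588 to 612 in WT. In each line 2 of 6 rose (AHA3 and NAKR1), 1 fell (SEOR1), and APL, FTIP1 and PP2-A1 were not called. AHA3, the largest part of the sum, averaged 391 CPM in Oex2, 502 in Oex1 and 322 in WT. SEOR1 averaged 15.6, 25.9 and 40.2 CPM in the same order, so the sum does not speak for all 6 markers. SWEET11 and SWEET12 both rose in both lines (161 to 220 CPM summed in Oex2, 155 to 218 in Oex1 and 83.6 to 92.2 in WT). Of 5 guard cell markers, 1 rose and 1 fell in Oex2, and 2 rose and 1 fell in Oex1 (45.5 to 48.6 CPM summed in Oex2, 56.3 to 63.1 in Oex1 and 43 to 51.6 in WT). Of 4 epidermis markers, 3 fell in Oex2 and 2 in Oex1. All 3 mesophyll markers fell in both lines, with a summed level of 12325 to 13010 CPM in Oex2, 10847 to 15686 in Oex1 and 27072 to 45259 in WT. The part of these shifts in the importer values was not tested.

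The genes whose levels most closely followed an importer's were sought among genes with a symbol, by Pearson's r of log2 CPM over the 9 libraries of an experiment. These libraries fall into 3 groups, so r mostly reflects the group means, and for STP1 in discs 622 of 8153 genes reached an r of 0.95. In discs the nearest to STP1 were SEN1 (r 0.999), a dark-induced senescence gene, and GDH1 (0.999), a glutamate dehydrogenase. STP14 was closest to TPS11 (0.999), of the trehalose phosphate synthase family, and TLP2. STP13 was closest to UGT73B3 (0.993), a stress-induced glycosyltransferase, and ERF-1 (0.991), an ethylene response factor. SUC2 was closest to FBA7 (0.998), a fructose-bisphosphate aldolase. In leaves STP1 was closest to CINV1 (0.989), a cytosolic invertase, and to PMT6 (0.987). STP7 in leaves was closest to ICS2 and ABI5 (0.995 each), an isochorismate synthase and an abscisic acid response regulator. None of these was among the 2 genes taken as nearest by Spearman's rho, which for GDH1 was 0.767. The 4 genes that rho named again were OEP7 for STP3 (r 0.993) and CP5 for INT4 (0.998) in discs, and IPS1 for STP3 (0.98) and CYP71A12 for PMT5 (0.964) in leaves. Over 9 libraries rho values tie, and ties were cut by their order in the list. AGL18 and PLL5, the nearest to SUC1 in discs, each had a rho of 1 and were not named again. The number named again therefore does not measure how far rho and r differ.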

How the data were processed

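RNA was sequenced from 18 libraries, 3 in each of 6 groups. The authors deposited 1 table of read counts per gene, which were used as deposited. Per the submitters' processing notes, fastp, HISAT2 2.0.5 and StringTie 1.3.3 were used with build TAIR10. No source used here names the counting tool or whether it used strand, and libraries were directional per the labels' protocols. Gene models and upstream bases came from TAIR10.1, matched by locus (32548 matched). Each experiment was fitted apart with edgeR 4.0.16 in R 4.3.3: filterByExpr, TMM scaling, robust quasi-likelihood fit with 1 mean per group, two-sided test, Benjamini-Hochberg adjustment over all genes tested. Intervals are 95%. The fits were also run on simulated counts with few changed genes, as many up as down. That setting is unlike the broad changes called here, so it does not test the choice of scaling. Alternatives were RLE or library-size scaling, DESeq2 1.42.0, other filters, a stricter threshold, 2 groups alone, a replicate block, merged replicates and each library left out. All 10 importers are named, other family genes by smallest p (up to 4 a comparison), and the 2 most alike genes by highest r. Members and lists were chosen with earlier results of these data known.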

Additional observations from a re-analysis of the deposited data

How the results depend on the processing

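Of the 24 importer calls in discs 19 kept direction and threshold in all 18 alternatives, and of the 11 in leaves 4 did in all 19. No called change reversed. For fructose against mannitol, the 2 importers called higher became 0 with an adjusted p under 0.01, RLE scaling or DESeq2, 1 with the replicate block, 2 groups alone or merged replicates, and 0 to 2 with a library left out. For fructose against glucose, the 2 called higher became 1 at 0.01 and 1 to 3 with a library left out. For Oex1 against WT, the 2 called lower became 0 at 0.01 or with merged replicates, 1 by library size or with 2 groups alone, 0 to 3 with a library left out, and 4 without WT replicate 2 and Oex1 replicate 1 (chosen after seeing the data). For Oex2 against WT, the 2 called higher became 1 at 0.01, with 2 groups alone or merged replicates, 4 by library size and 1 to 3 with a library left out, and the 4 called lower became 1 at 0.01 or by library size, 2 with merged replicates and 1 to 5 with a library left out. For Oex2 against Oex1, the 0 called lower became 1 with DESeq2, 1 without WT replicate 2 and Oex1 replicate 1, and 0 to 1 with a library left out.

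Uncalled values changed sign. Library-size scaling gave 0.18 for STP13 (fructose against mannitol), 0.03 for STP1 and 0.01 for STP3 (fructose against glucose), and for PMT5 0.19 in Oex2, 0.16 in Oex1 and 0.03 between the lines. Merged replicates gave PMT5 0.01 in Oex2 and 0.05 in Oex1. Without WT replicate 2 and Oex1 replicate 1, PMT5 was 0.03 in Oex2, and between the lines STP1 was 0.17, SUC1 0.26, STP4 0.06 and PMT5 0.18. Between the lines STP3 was 0 with no filter or the replicate block, and STP13 0 with the block. With a library left out, STP13 ranged from -0.38 to 0.16 for fructose against mannitol, STP1 from -0.14 to 0.11 and STP3 from -0.12 to 0.01 for fructose against glucose, PMT5 from -0.2 to 0.03 in Oex2 and -0.24 to 0.06 in Oex1, and between the lines STP1 from -0.8 to 0.16, SUC1 from -0.45 to 0.25, STP4 from -0.22 to 0.06, PMT5 from -0.17 to 0.18, STP3 from -0.17 to 0.11 and STP13 from -0.17 to 0.09. Per coding length, STP1 held 57.4% in mannitol and STP13 38.7% in glucose. Spearman's rho named 4 of the 40 most alike genes again, a count that depends on how tied rho values are ordered.

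Over all genes, Oex2 against Oex1 gave 10 calls, against 680 with DESeq2, 25 with no filter, 91 with 2 groups alone, 1 with the replicate block, 0 with merged replicates, 817 without WT replicate 2 and Oex1 replicate 1, and 0 to 492 with a library left out, and Oex1 against WT gave 8196, against 5079 with merged replicates. Replicate numbers showed no clear pairing of the samples (correlation of same-numbered deviations -0.426 to 0.111 in discs and -0.088 to 0.159 in leaves). With 3 libraries a group, these values cannot decide whether same-numbered libraries belong together. Among importers the replicate block ended the call of SUC1 for fructose against mannitol (0.0789) and gave calls for STP13 in Oex2 and Oex1 (0.0439 and 0.0412), SUC1 in Oex2 (0.0232) and STP14 in Oex1 (0.0433). The cause of these shifts was not tested, and 3 libraries a group limit the precision.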
